A study of Mus musculus with 12 samples.

Results

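The comparison described here is the difference between 2 mutant effects in whole mouse embryos at E12.5: the effect of losing Carm1, which encodes an arginine methyltransferase, minus the effect of losing Pax3, which encodes a paired-box transcription factor. All 12 libraries of the series entered it, 6 of each line, and it was taken gene by gene for the 16292 genes that passed a filter on low counts of the 23420 listed. Carm1 null embryos were homozygous for Carm1tm1Mtb (Carm1 KO/KO, strain C57BL/6), and Pax3 null embryos were homozygous for Pax3Sp2H (Pax3 Sp2H/Sp2H, mixed strain, a closed colony with CBA/Ca, 101 and C3H/He ancestry that another laboratory keeps). Each mutant group of 3 embryos was set against 3 wild-type embryos of its own line, and each embryo gave 1 library of polyadenylated RNA. Strain, colony and laboratory differ between the lines, so they cannot be told apart from the mutation in any difference of the effects, and no embryo carried both alleles. Since whole embryos were homogenized, fewer cells of a type and less RNA per cell cannot be told apart in any value below.

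CARM1 methylates arginines of histone H3 and of many coactivators, splicing factors and other proteins, and it works with nuclear receptors and other transcription factors in many tissues. PAX3 acts in fewer places: in the dermomyotome, where the migrating precursors of limb muscle arise, in the dorsal neural tube, and in the neural crest, whose cells form sensory and sympathetic neurons, glia, melanocytes and part of the outflow tract of the heart. A difference of the effects asks which tissues answer to 1 of these losses and not to the other, or answer to them in opposite directions.

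Library totals lay between 17183344 and 23518692 counts. The 3 wild-type libraries of the Pax3 line stood apart from the other 9 in their short transcripts. For the 236 genes with a transcript under 500 nt, their median deviation from the mean of the 12 libraries was -0.53, -0.35 and -0.41 on the log2 scale, whereas the other libraries lay between -0.04 and 0.34. For the 791 genes from 500 to under 1000 nt the values were -0.32, -0.17 and -0.15, and at least 0.01 in the others. The median Pax3 effect ran with length, from 0.33 from 500 to under 1000 nt to -0.10 from 4000 nt up, while the median Carm1 effect stayed between -0.01 and 0.03 in every length class. Each result below was therefore also computed with offsets, which remove each library's trend with transcript length and GC content before the fit. The offsets brought the median Pax3 effect from 500 to under 1000 nt to -0.0037 but turned it to -0.36 under 500 nt, so for the shortest genes both scales carry a trend. Reads on Rn45s, the ribosomal RNA precursor, were 82474 to 89627 counts in Pax3 Sp2H/Sp2H, 155291 to 296038 counts in their wild types and 599228 to 1103518 counts in the 6 libraries of the Carm1 line, and leaving this gene out of the library sizes is among the alternatives. Libraries with Y-linked counts, as of male embryos, were 1 wild type of the Carm1 line, 1 Pax3 Sp2H/Sp2H and 2 wild types of the Pax3 line.

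**Figure D1:**
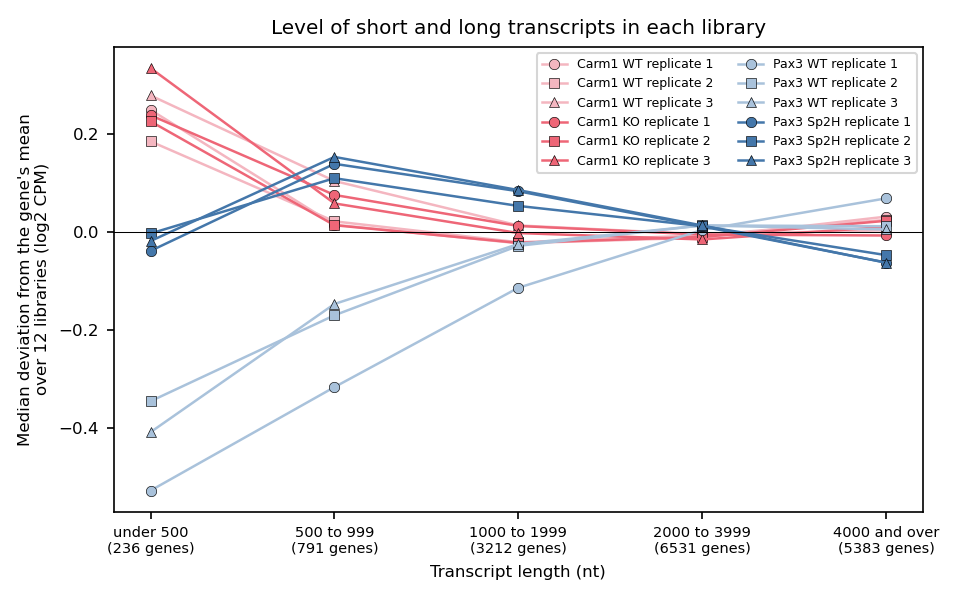
Median deviation of log2 CPM from the mean over the 12 libraries (vertical axis) for genes grouped by transcript length in nt (horizontal axis), 1 line per library. The 3 Pax3 wild-type libraries (light blue) lie at -0.35 or lower for transcripts under 500 nt and below the other 9 also from 500 to under 1000 nt, and all 12 come close to 0 from 2000 to under 4000 nt.

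The targeted genes were read first, in CPM, which is a count scaled to its library's total and TMM factor. Carm1 (chr9:21546894-21592623, mm10) had 72.4, 70.3 and 77.3 CPM in Carm1 KO/KO embryos and 153, 148 and 139 CPM in their wild types. Carm1 had 146, 150.2 and 136 CPM in Pax3 Sp2H/Sp2H embryos and 151, 156 and 149 CPM in the wild types of that line. Carm1 fell by 1.0 in the Carm1 line (adjusted p = 6.1e-15) and had an effect of -0.08 in the Pax3 line (95% interval -0.18 to 0.02, adjusted p = 0.26), a difference of -0.92 ± 0.07 (adjusted p = 2.4e-10). The Carm1 KO/KO libraries thus held a reduced level of Carm1 reads and the other 9 libraries lay together. With offsets a further fall of Carm1 in the Pax3 line was called, and Carm1 was in the class of unequal size. The counts are per gene, so reads from a transcript that lacks the deleted exons are still counted. Pax3 (chr1:78101267-78197134, mm10) had 30.9, 29.7 and 27.8 CPM in Carm1 KO/KO embryos and 20.7, 22.7 and 24.5 CPM in their wild types. Pax3 had 22.0, 21.6 and 17.8 CPM in Pax3 Sp2H/Sp2H embryos and 30.7, 24.6 and 27.9 CPM in the wild types of that line. Pax3 rose by 0.38 in the Carm1 line (adjusted p = 0.0065) and fell by 0.44 in the Pax3 line (adjusted p = 4.2e-04), a difference of 0.82 ± 0.13 (adjusted p = 2.9e-05). Pax3 itself was thus a gene of opposite effects: its reads were higher in every Carm1 KO/KO library than in any wild type of that line, and lower in every Pax3 Sp2H/Sp2H library than in any wild type of its own. Transcripts of the Sp2H allele are counted with the rest.

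Effects are given on the log2 scale, mutant over wild type of the same line, with ± as the standard error of the difference, and a gene is called where its adjusted p is below 0.05 in the quasi-likelihood test of edgeR, adjusted by the Benjamini-Hochberg method over all 16292 genes. A difference is higher where the Carm1 effect is the more positive and lower where it is the more negative. The effects of the 2 mutations differed for 3115 genes (19.1% of those tested), of which 1410 had the higher effect in the Carm1 line (8.65%) and 1705 the lower (10.5%). With offsets 2790 genes were called (17.1%), 1996 of them in both fits, and the share with the higher effect in the Carm1 line moved from 45.3% to 53.4% of the calls. The Carm1 effect was called for 1678 genes (10.3%), 668 higher (4.1%) and 1010 lower (6.2%), and the Pax3 effect for 4596 genes (28.2%), 2313 higher (14.2%) and 2283 lower (14%).

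Genes with a called difference fall into classes by their effect in each line. The class of opposite effects held 202 genes (1.24%), called in both lines with opposite signs. In 107 of them the level was lower in Carm1 KO/KO and higher in Pax3 Sp2H/Sp2H, and in 95 the reverse. An effect in the Carm1 line alone, with a called difference, was found for 541 genes (3.32%), of which 339 were lower and 202 higher in Carm1 KO/KO. An effect in the Pax3 line alone was found for 2032 genes (12.5%), of which 1113 were higher and 919 lower in Pax3 Sp2H/Sp2H. A further 31 genes moved in the same direction in both lines but by unequal amounts, 309 had a called difference with neither effect called, and 295 genes were called in both lines in the same direction with no called difference, here named shared. The Carm1 effect was called for 891 genes without Carm1 KO/KO replicate 1, 1091 without replicate 2 of that group and 1061 without Carm1 wild-type replicate 2. The opposite class held 106, 110 and 132 genes without Carm1 KO/KO replicates 1, 2 and 3, 130 without Carm1 wild-type replicate 2 and 116 without Pax3 Sp2H/Sp2H replicate 3, and the Carm1 line alone class 331 without Carm1 KO/KO replicate 1.

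The classes differed in transcript length. The median transcript of all genes tested was 3062 nt. Genes higher in the Pax3 line alone had a median of 1642 nt and 25.1% were under 1000 nt, against 6.36% of all, and genes lower in the Pax3 line alone had a median of 4819 nt. Genes higher in Carm1 KO/KO and lower in Pax3 Sp2H/Sp2H were long as well, with a median of 4879.5 nt. The Carm1 line alone class lay nearer to the whole, at 2851 nt for its lower and 3581 nt for its higher genes. With offsets, 84 of the 202 opposite genes, 405 of the 541 in the Carm1 line alone and 871 of the 2032 in the Pax3 line alone kept their class. For the genes named below the class with offsets is given wherever it differs. Of the 40 gene lists described below, 20 had a median difference that moved by more than 1.5 times or changed sign when 1 library was left out. The 6 that changed sign had medians of at most 0.053 in size, so a median that close to 0 carries no direction. Counts in the lists are to be read beside the shares of all genes tested. Of these, 19.1% had a called difference, 14.2% rose and 14% fell in the Pax3 line, and 4.1% rose and 6.2% fell in the Carm1 line.

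**Figure D2:**
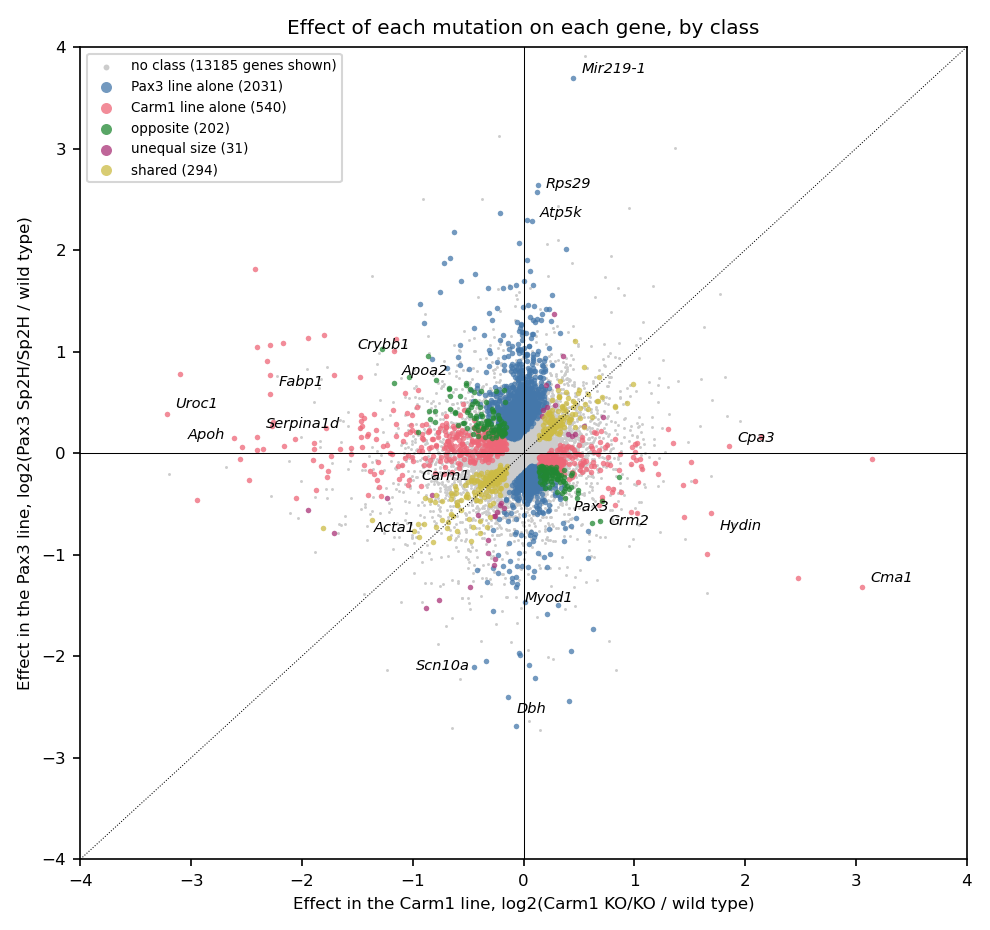
Effect of the Carm1 mutation (horizontal axis, log2) against effect of the Pax3 mutation (vertical axis, log2) for each gene tested, coloured by class, with 9 genes outside the limits of 4 not drawn. Carm1 line alone genes spread along the horizontal axis, mostly to the left among the largest changes, Pax3 line alone genes spread along the vertical axis, and opposite genes fill the upper left and lower right; the dotted line marks equal effects.

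**Figure D3:**
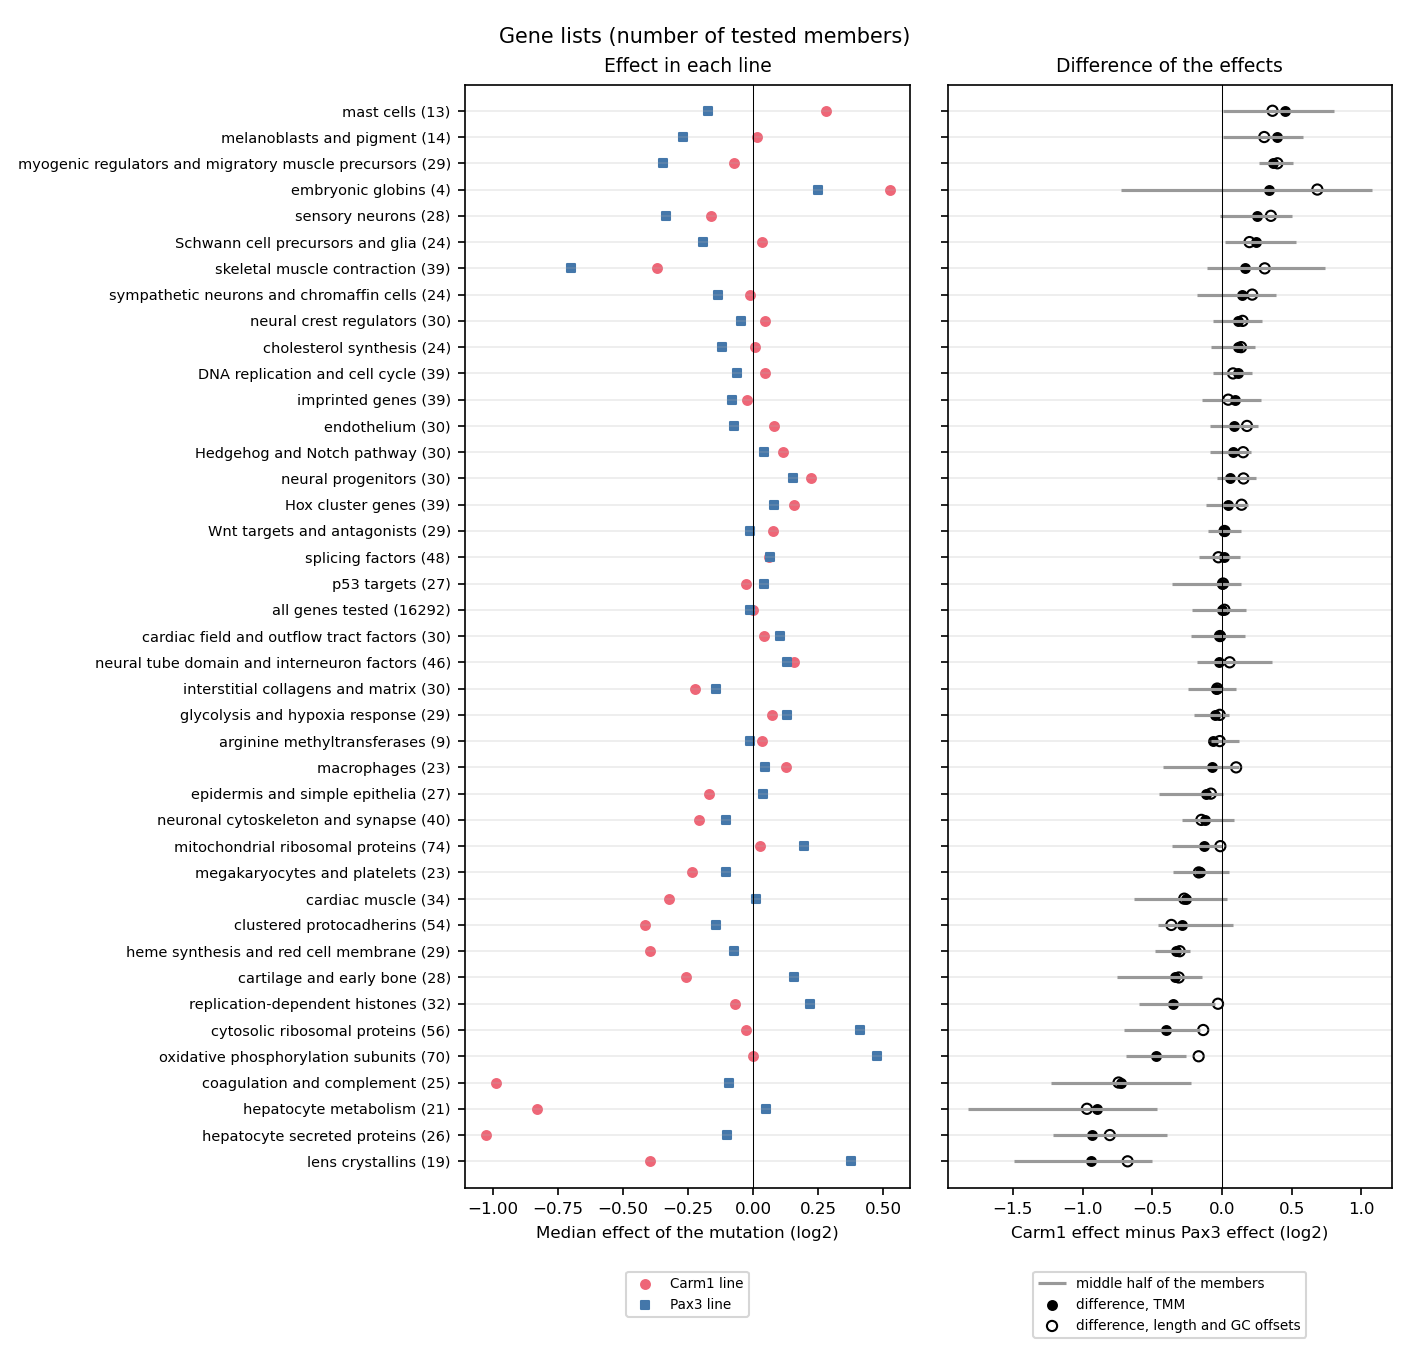
Median effect of each gene list in the 2 lines (left, log2) and median difference of the effects (right, log2), with grey bars for the interquartile range of the members and open circles for the fit with length and GC offsets. The 3 hepatocyte and coagulation lists lie at -0.83 to -1.03 in the Carm1 line and near 0 in the Pax3 line, skeletal muscle lies lower in the Pax3 line than in the Carm1 line, and the ribosomal and oxidative phosphorylation lists move toward 0 with offsets.

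Genes close to the mutated genes were counted apart, since linked sequence differs with the allele. Within 5 Mb of Carm1, 17 of 81 genes tested had a called difference (21%), and within 5 Mb of Pax3 16 of 77 (20.8%), beside 19.1% of all genes. Within 20 Mb the shares were 21.6% and 18.2%. Icam4 and Epor, described below, lie on chromosome 9 within 5 Mb of Carm1.

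Many liver genes were lower in the Carm1 line alone. The hepatocyte is the cell that makes most plasma proteins, and the median effect of its genes was well below 0 in Carm1 KO/KO embryos and close to 0 in Pax3 Sp2H/Sp2H embryos. For 26 hepatocyte secreted proteins the medians were -1.03 in the Carm1 line, -0.10 in the Pax3 line and -0.93 for the difference, against 0.0014, -0.01 and -0.0010 for all genes tested. Of these, 14 (53.8%) had a called difference, each lower, and 12 of the 14 were in the Carm1 line alone class. A further 2 were shared. Of 25 coagulation and complement genes 5 fell in the Pax3 line, and 3 were shared. Their medians were -0.99 in the Carm1 line, -0.09 in the Pax3 line and -0.73 for the difference, with 11 called, each lower, 10 of them in the Carm1 line alone. For 21 genes of hepatocyte metabolism they were -0.83 in the Carm1 line, 0.05 in the Pax3 line and -0.90 for the difference, with 8 called, each lower, and the median difference was -0.53 over the members with at least 10 counts in every library. With offsets 5 of the metabolism genes were called (23.8%, beside 17.1% of all genes). With offsets the medians of the difference were -0.80, -0.74 and -0.97.

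Fgg, the gamma chain of fibrinogen, had 5.63, 7.33 and 6.75 CPM in Carm1 KO/KO embryos and 15.1, 15.6 and 18.2 CPM in their wild types. Fgg had 8.52, 11.4 and 10.8 CPM in Pax3 Sp2H/Sp2H embryos and 11.7, 10.7 and 10.2 CPM in the wild types of that line. Fgg fell by 1.31 in the Carm1 line (adjusted p = 5.4e-09) and had an effect of -0.08 in the Pax3 line (95% interval -0.32 to 0.15, adjusted p = 0.64), a difference of -1.23 ± 0.17 (adjusted p = 5.3e-06). All 3 Carm1 KO/KO libraries were the lowest of the 12, and the 3 wild types of that line the highest. Bhmt, which remakes methionine from homocysteine, had 0.669, 0.284 and 0.777 CPM in Carm1 KO/KO embryos and 3.25, 3.62 and 3.36 CPM in their wild types. Bhmt had 2.99, 3.66 and 3.46 CPM in Pax3 Sp2H/Sp2H embryos and 3.83, 2.74 and 3.86 CPM in the wild types of that line. Bhmt fell by 2.56 in the Carm1 line (adjusted p = 8.9e-08) and had an effect of -0.06 in the Pax3 line (95% interval -0.45 to 0.34, adjusted p = 0.86), a difference of -2.50 ± 0.35 (adjusted p = 5.4e-06). Every Carm1 KO/KO library lay below every other library of the 12, and the other 9 overlapped.

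Hnf4a, a nuclear receptor that drives many hepatocyte genes, had 3.51, 6.19 and 5.38 CPM in Carm1 KO/KO embryos and 13.8, 10.3 and 13.2 CPM in their wild types. Hnf4a had 7.60, 8.88 and 8.88 CPM in Pax3 Sp2H/Sp2H embryos and 12, 10.9 and 9.16 CPM in the wild types of that line. Hnf4a fell by 1.30 in the Carm1 line (adjusted p = 1.7e-06) and had an effect of -0.33 in the Pax3 line (95% interval -0.62 to -0.04, adjusted p = 0.081), a difference of -0.97 ± 0.21 (adjusted p = 0.0017). The Pax3 groups did not overlap either, with the mutants lower, but that effect was not called. Other genes of the Carm1 line alone class were Cpb2 (-1.83 in the Carm1 line, -0.13 in the Pax3 line, difference -1.70 ± 0.31, adjusted p = 2.1e-04), an inhibitor of fibrinolysis, and F2 (-1.01 and -0.04, difference -0.97 ± 0.17, adjusted p = 1.2e-04), which is prothrombin. Further ones were Serpinc1 (-1.27 and 0.07, difference -1.34 ± 0.20, adjusted p = 1.8e-05), which is antithrombin, and Ambp (-0.75 and 0.25, difference -1.0 ± 0.15, adjusted p = 7.9e-05), the precursor of bikunin. Uroc1, of histidine breakdown, fell by 3.22 in the Carm1 line and had a Pax3 effect of 0.38, at levels of at most 2.44 CPM. The alpha-1 antitrypsin genes of the Serpina1 cluster are near-identical copies, so their reads could be split between them: Serpina1a gave effects of -1.41 and 0.17 with a difference of -1.58 ± 0.26 (adjusted p = 4.1e-05).

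Apoa2 and Rbp4 were the liver genes of opposite effects. Apoa2, an apolipoprotein of high-density lipoprotein, had 13.5, 19.1 and 18 CPM in Carm1 KO/KO embryos and 34.3, 31.8 and 48.2 CPM in their wild types. Apoa2 had 30.7, 28.9 and 31.6 CPM in Pax3 Sp2H/Sp2H embryos and 20.2, 17.9 and 18.4 CPM in the wild types of that line. Apoa2 fell by 1.17 in the Carm1 line (adjusted p = 2.9e-04) and rose by 0.69 in the Pax3 line (adjusted p = 0.0039), a difference of -1.86 ± 0.21 (adjusted p = 6.2e-05). Neither pair of groups overlapped, and Carm1 KO/KO overlapped the Pax3 wild types. Rbp4, the plasma carrier of retinol, had 27.4, 28.4 and 25.7 CPM in Carm1 KO/KO embryos and 49.9, 42.0 and 56.1 CPM in their wild types. Rbp4 had 44.3, 39.2 and 42.6 CPM in Pax3 Sp2H/Sp2H embryos and 31.5, 31.2 and 32.2 CPM in the wild types of that line. Rbp4 fell by 0.86 in the Carm1 line (adjusted p = 7.9e-09) and rose by 0.41 in the Pax3 line (adjusted p = 1.9e-04), a difference of -1.27 ± 0.11 (adjusted p = 3.6e-09). Both have short transcripts (518 and 1161 nt), and with offsets both were of the Carm1 line alone class, with differences of -1.44 (adjusted p = 0.0018) and -0.98 (adjusted p = 4.3e-08). The fall in Carm1 KO/KO was thus called in both fits, and the rise in Pax3 Sp2H/Sp2H only without offsets.

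The promoters of these liver genes are shown because the members moved together. HNF1 and HNF4A, factors of the hepatocyte, are known to act close to the start of many of them. The string GTTAATNNT, part of the site of HNF1, was searched on both strands in the 250 bases before each RefSeq start (GRCm38.p6). It was found in 8 of the 25 genes of the 3 liver lists that were lower in the Carm1 line alone and have a promoter in the table (32.0%), against 1.70% of all genes tested. Among these, 3 are Serpina1 copies with nearly the same sequence. Promoters on 1 chromosome were left out before the genes printed below were chosen. The 120 bases before the start are printed 5′ to 3′ for the 4 genes of smallest adjusted p in the Carm1 line that hold it there, with 1 Serpina1 copy kept and the match in capitals: Serpina1b at chr12:103738190-103738309 on the minus strand, Hnf4a at chr2:163547035-163547154 on the plus strand at a listed start, Fga at chr3:83026033-83026152 on the plus strand and Fgb at chr3:83049864-83049983 on the minus strand.
Serpina1b: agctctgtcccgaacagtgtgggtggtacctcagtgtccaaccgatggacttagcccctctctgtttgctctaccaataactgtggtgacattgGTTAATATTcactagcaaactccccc
Hnf4a: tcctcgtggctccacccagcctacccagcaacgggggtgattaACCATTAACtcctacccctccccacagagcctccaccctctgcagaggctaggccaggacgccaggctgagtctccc
Fga: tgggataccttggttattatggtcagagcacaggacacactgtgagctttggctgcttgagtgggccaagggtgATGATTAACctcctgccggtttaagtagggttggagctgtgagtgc
Fgb: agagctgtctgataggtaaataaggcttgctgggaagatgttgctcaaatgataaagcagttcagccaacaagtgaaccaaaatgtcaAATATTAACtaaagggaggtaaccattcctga
A match is a run of letters and no evidence that a factor was bound. The genes were first chosen as hepatocyte genes, and members of the liver lists outside this class were not counted. The share thus cannot be told apart from that of hepatocyte genes in general and says nothing about the loss of Carm1. The string was held by 17 of 257 genes lower in the Carm1 line alone (6.61%), by 1.32% of those lower in the Pax3 line alone and by 1.34% of the opposite genes. Of 15 strings searched, this string and CAGCTG, given with the muscle genes, are the ones described, and both were picked after their counts were seen. The other 13 were GTTAATNAT, a stricter form of the HNF1 string, then TGACCTTTG and CAAAGTCCA, forms of sites of nuclear receptors, and CAGGTG, another E box. Of the 25 liver genes, 2 held GTTAATNAT (8%, against 0.552% of all genes tested). The nuclear receptor strings were held by 1 and 0 of the 25, against 0.399% and 0.442% of all genes tested. TTAATTA and GTCACGC stand for homeodomain and paired domains, CTATTTATA and CTATTTTTA for MEF2, and CCATATTAG for SRF. TTCCGG stands for ETS factors, TGGAAA for NFAT and AGATAA for GATA factors, and CTTTCC was the last. Several of them overlap one another.

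Red cell genes were lower in the Carm1 line as well. Red cells mature in the liver at this age. Of 29 genes of heme synthesis and the red cell membrane, 13 (44.8%) had a called difference, each lower, 8 of them in the Carm1 line alone and 3 of opposite effects, and the medians were -0.40 in the Carm1 line, -0.07 in the Pax3 line and -0.33 for the difference. With offsets 7 (24.1%) were called, each lower, beside 17.1% of all genes. Cpox, an enzyme of heme synthesis, had 110.2, 113 and 109.8 CPM in Carm1 KO/KO embryos and 173, 181 and 186 CPM in their wild types. Cpox had 112, 95.3 and 118 CPM in Pax3 Sp2H/Sp2H embryos and 116, 118 and 97.3 CPM in the wild types of that line. Cpox fell by 0.70 in the Carm1 line (adjusted p = 1.0e-06) and had an effect of -0.02 in the Pax3 line (95% interval -0.17 to 0.12, adjusted p = 0.84), a difference of -0.67 ± 0.10 (adjusted p = 7.6e-05). The Carm1 wild types stood above the other 9 libraries, which overlapped. Epor, the erythropoietin receptor, had 13.9, 13.8 and 13 CPM in Carm1 KO/KO embryos and 20.3, 19.8 and 22.1 CPM in their wild types. Epor had 19.4, 18.1 and 21.1 CPM in Pax3 Sp2H/Sp2H embryos and 14.9, 16.4 and 13.3 CPM in the wild types of that line. Epor fell by 0.61 in the Carm1 line (adjusted p = 4.3e-05) and rose by 0.40 in the Pax3 line (adjusted p = 0.0016), a difference of -1.02 ± 0.13 (adjusted p = 2.6e-06). Its Carm1 KO/KO values and its Pax3 wild-type values ran together, and the other groups lay above both. Rhd, of the Rh complex of the red cell membrane, and Ppox, an enzyme of heme synthesis, were opposite too, with differences of -0.84 ± 0.13 (adjusted p = 3.5e-05) and -0.48 ± 0.09 (adjusted p = 1.4e-04). With offsets Epor, Rhd and Ppox were all of the Carm1 line alone class.

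The globin list, which holds embryonic globins and the adult beta globin Beta-s, was split. Of 4 tested, 1 had a higher and 1 a lower difference, the lower being Beta-s. The medians were 0.53 in the Carm1 line, 0.25 in the Pax3 line and 0.34 for the difference. The last turned to -0.40 where no filter was used. It was 0.15 without Carm1 wild-type replicate 1, 0.58 without Carm1 wild-type replicate 3 and 0.21 without Pax3 wild-type replicate 2. Hbb-bh1, a beta-like globin of primitive red cells, had 458, 489 and 476 CPM in Carm1 KO/KO embryos and 142, 184 and 250.3 CPM in their wild types. Hbb-bh1 had 428, 395 and 368 CPM in Pax3 Sp2H/Sp2H embryos and 309.7, 403 and 299 CPM in the wild types of that line. Hbb-bh1 rose by 1.30 in the Carm1 line (adjusted p = 0.0045) and had an effect of 0.24 in the Pax3 line (95% interval -0.21 to 0.68, adjusted p = 0.42), a difference of 1.07 ± 0.28 (adjusted p = 0.030). Its Carm1 KO/KO libraries were the highest of the 12, and the Pax3 groups overlapped. Beta-s, a beta globin whose copies and haplotypes differ between mouse strains, had 653, 784 and 698 CPM in Carm1 KO/KO embryos and 1647, 1894 and 2319.9 CPM in their wild types. Beta-s had 886, 563 and 1046 CPM in Pax3 Sp2H/Sp2H embryos and 769, 733 and 579 CPM in the wild types of that line. Beta-s fell by 1.46 in the Carm1 line (adjusted p = 0.0063) and had an effect of 0.26 in the Pax3 line (95% interval -0.27 to 0.80, adjusted p = 0.46), a difference of -1.72 ± 0.33 (adjusted p = 0.0083). Here the 3 Carm1 wild types stood far above the other 9, and the Pax3 groups overlapped. Hbb-bh1 was not called when any of Carm1 KO/KO replicates 1, 2 and 3, Carm1 wild-type replicate 2, Pax3 Sp2H/Sp2H replicates 1, 2 and 3 and Pax3 wild-type replicate 2 was left out (adjusted p from 0.051 to 0.075).

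Some mast cell genes rose in the Carm1 line. Of 13 mast cell genes, 3 had a higher and 1 a lower difference (30.8%, beside 19.1% of all genes). The medians were 0.28 in the Carm1 line, -0.17 in the Pax3 line and 0.45 for the difference, the last being 0.81 with DESeq2. Cpa3, the carboxypeptidase of mast cell granules, had 9.75, 9.66 and 9.44 CPM in Carm1 KO/KO embryos and 1.98, 2.49 and 3.41 CPM in their wild types. Cpa3 had 0.659, 0.580 and 0.542 CPM in Pax3 Sp2H/Sp2H embryos and 0.921, 0.343 and 0.424 CPM in the wild types of that line. Cpa3 rose by 1.86 in the Carm1 line (adjusted p = 2.8e-08) and had an effect of 0.06 in the Pax3 line (95% interval -0.69 to 0.82, adjusted p = 0.92), a difference of 1.79 ± 0.43 (adjusted p = 0.0031). Its 3 Carm1 KO/KO libraries stood far above the other 9. Ccr2, a chemokine receptor of monocytes that was named for the size of its difference, had 7.80, 5.57 and 5.98 CPM in Carm1 KO/KO embryos and 2.28, 1.96 and 2.91 CPM in their wild types. Ccr2 had 0.922, 0.402 and 1.04 CPM in Pax3 Sp2H/Sp2H embryos and 1.02, 1.03 and 0.933 CPM in the wild types of that line. Ccr2 rose by 1.44 in the Carm1 line (adjusted p = 2.3e-05) and had an effect of -0.32 in the Pax3 line (95% interval -0.97 to 0.34, adjusted p = 0.51), a difference of 1.75 ± 0.39 (adjusted p = 0.0017). Cpa3 was not called when the library Pax3 wild-type replicate 1 was left out (adjusted p = 0.083). Cma1, mast cell chymase, was at 2.84, 2.56 and 2.69 CPM in the Carm1 KO/KO libraries, 0.541, 0.349 and 0.0988 CPM in their wild types and at most 0.171 CPM in the Pax3 line, where a fold has no base. Cma1 was not called when any of Pax3 Sp2H/Sp2H replicates 2 and 3 and Pax3 wild-type replicates 2 and 3 was left out (adjusted p from 0.050 to 0.18), and the fitted difference of 4.37 became 6.86 without Pax3 Sp2H/Sp2H replicate 1. Kit, the receptor of stem cell factor, had a difference of 0.35 ± 0.10 (adjusted p = 0.012) with neither effect called, or was in the Carm1 line alone class with offsets, and Kit was not called when the library Pax3 wild-type replicate 1 was left out (adjusted p = 0.061). Cd63, a granule membrane protein found in many cells, had a difference of -0.53 ± 0.08 (adjusted p = 8.6e-06).

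Marco, a scavenger receptor of macrophages, had 0.334, 0.511 and 0.359 CPM in Carm1 KO/KO embryos and 3.31, 3.14 and 3.01 CPM in their wild types. Marco had 0.659, 0.491 and 0.501 CPM in Pax3 Sp2H/Sp2H embryos and 0.775, 0.685 and 0.806 CPM in the wild types of that line. Marco fell by 2.95 in the Carm1 line (adjusted p = 8.4e-08) and had an effect of -0.46 in the Pax3 line (95% interval -1.17 to 0.24, adjusted p = 0.35), a difference of -2.49 ± 0.49 (adjusted p = 4.8e-04). The Carm1 wild types stood well above all other libraries. DESeq2 gave no adjusted p for Marco. The list of 23 macrophage genes had a median difference of -0.07, which turned to 0.10 with offsets. Of its members 5 were called (21.7%, beside 19.1% of all genes), among them Emr1, the F4/80 antigen (difference -0.60 ± 0.19, adjusted p = 0.023). Emr1 was not called when any of Carm1 KO/KO replicate 3 and Pax3 Sp2H/Sp2H replicate 3 was left out (adjusted p from 0.056 to 0.060). C1qc, a complement component of macrophages, was called in the Pax3 line alone, with a difference of -0.64 ± 0.16 (adjusted p = 0.0044) that was -0.34 (adjusted p = 0.13) with offsets. Of 23 genes of megakaryocytes and platelets 2 had a higher and 3 a lower difference (21.7%, beside 19.1% of all genes). The medians were -0.23 in the Carm1 line, -0.10 in the Pax3 line and -0.16 for the difference, the last being -0.10 without Pax3 Sp2H/Sp2H replicate 1. Ppbp and Pf4, chemokines of platelet granules, fell by 1.13 and 0.80 in the Carm1 line, with differences of -0.87 ± 0.18 (adjusted p = 0.0010) and -1.10 ± 0.15 (adjusted p = 7.1e-06), and Nfe2, a factor of red cells and megakaryocytes, had one of -0.55 ± 0.15 (adjusted p = 0.011). With offsets Ppbp was in the class of unequal size and Pf4, opposite without them, in the Carm1 line alone. Thbs1, thrombospondin, fell in the Pax3 line alone (difference 0.41 ± 0.09, adjusted p = 0.0018).

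Many skeletal muscle genes fell, in the Pax3 line alone or in both lines. Of 29 myogenic regulators and genes of migrating muscle precursors, 20 fell and 1 rose in the Pax3 line, and 2 fell and 4 rose in the Carm1 line. A called difference was found for 15 (51.7%), each higher, that is, with the more positive effect in Carm1 KO/KO, and 2 of these were opposite. The medians were -0.07 in the Carm1 line, -0.35 in the Pax3 line and 0.36 for the difference, and 0.40 for the difference with offsets. Of 39 genes of contraction, 25 fell in the Pax3 line and 18 in the Carm1 line, 8 were shared, 12 had a higher and 3 a lower difference, and the medians were -0.37 in the Carm1 line, -0.70 in the Pax3 line and 0.17 for the difference. That median difference was 0.31 with offsets and 0.25 without Pax3 wild-type replicate 2.

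Myod1, which commits cells to muscle, had 23.8, 26.0 and 26.0 CPM in Carm1 KO/KO embryos and 27.2, 28.0 and 24 CPM in their wild types. Myod1 had 11.3, 9.24 and 12.2 CPM in Pax3 Sp2H/Sp2H embryos and 28.7, 26.2 and 25.1 CPM in the wild types of that line. Myod1 had an effect of -0.06 in the Carm1 line (95% interval -0.25 to 0.13, adjusted p = 0.75) and fell by 1.29 in the Pax3 line (adjusted p = 1.5e-11), a difference of 1.22 ± 0.13 (adjusted p = 1.0e-07). The 3 Pax3 Sp2H/Sp2H libraries lay far below the other 9, whose ranges overlapped. Myog, which drives the fusion and differentiation of myoblasts, had 52.0, 52.9 and 51.0 CPM in Carm1 KO/KO embryos and 63.0, 63.9 and 60.3 CPM in their wild types. Myog had 20.7, 20.1 and 24.4 CPM in Pax3 Sp2H/Sp2H embryos and 43.4, 47.1 and 49.3 CPM in the wild types of that line. Myog fell by 0.26 in the Carm1 line (adjusted p = 0.0061) and fell by 1.10 in the Pax3 line (adjusted p = 1.5e-13), a difference of 0.84 ± 0.09 (adjusted p = 1.5e-07). Both mutants were below their own wild types with no overlap, and the fall in the Pax3 line was the larger, so Myog was in the class of unequal size. Cdh15, the M-cadherin of myoblasts, fell in the Pax3 line alone (-0.12 in the Carm1 line, -1.07 in the Pax3 line, difference 0.94 ± 0.14 (adjusted p = 1.7e-05)), as did Chrna1, a subunit of the muscle acetylcholine receptor (-0.11 and -1.27, difference 1.17 ± 0.21 (adjusted p = 1.3e-04)), and Atp2a1, the calcium pump of fast muscle (-0.13 and -0.89, difference 0.76 ± 0.13 (adjusted p = 5.8e-05)). Klhl41, a protein of the sarcomere, fell in both by unequal amounts (-0.26 and -1.04, difference 0.79 ± 0.12 (adjusted p = 2.7e-05)).

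Other contractile genes fell in both lines with no called difference. Acta1, skeletal alpha-actin, had 42.4, 39.2 and 41.4 CPM in Carm1 KO/KO embryos and 74.7, 79.3 and 75.8 CPM in their wild types. Acta1 had 26.4, 25.5 and 28.1 CPM in Pax3 Sp2H/Sp2H embryos and 43.3, 43.7 and 43.0 CPM in the wild types of that line. Acta1 fell by 0.90 in the Carm1 line (adjusted p = 4.7e-13) and fell by 0.70 in the Pax3 line (adjusted p = 1.7e-10), a difference of -0.20 ± 0.08 (adjusted p = 0.087). Myl1 and Actn2, a light chain of fast muscle and an actinin of the Z disc, gave differences of 0.06 ± 0.11 (adjusted p = 0.75) and 0.05 ± 0.11 (adjusted p = 0.81), with intervals of -0.16 to 0.29 and -0.18 to 0.27. These 3 genes had been named for the smallest adjusted p in both lines among shared genes that fell, so their falls are a description. The muscle lists thus held both kinds of member, genes that fell in the Pax3 line alone and genes that fell in both.

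The promoters of muscle genes are shown for the same reason. MYOD1 and MYOG bind E boxes, of which CAGCTG is one form and reads the same on both strands. It was found before the start of 13 of 32 genes of the muscle lists that fell in the Pax3 line and have a promoter in the table (40.6%), against 15% of all genes tested. The other E box searched, CAGGTG, was found in 4 of the 32 (12.5%), against 19% of all genes tested, so it was the rarer one in these promoters. Promoters on the chromosome left out for the liver genes were left out here too. Windows of 120 bases before the start, with CAGCTG in capitals, are given for the 4 genes of smallest adjusted p in the Pax3 line among the rest that hold it there: Atp2a1 at chr7:126463074-126463193 on the minus strand, Chrna1 at chr2:73580339-73580458 on the minus strand, Mylpf at chr7:127211488-127211607 on the plus strand and Mybph at chr1:134193328-134193447 on the plus strand.
Atp2a1: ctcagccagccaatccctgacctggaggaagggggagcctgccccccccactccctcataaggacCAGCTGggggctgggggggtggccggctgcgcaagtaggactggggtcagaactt
Chrna1: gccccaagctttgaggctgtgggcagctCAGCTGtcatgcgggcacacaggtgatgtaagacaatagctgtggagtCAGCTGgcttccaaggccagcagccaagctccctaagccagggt
Mylpf: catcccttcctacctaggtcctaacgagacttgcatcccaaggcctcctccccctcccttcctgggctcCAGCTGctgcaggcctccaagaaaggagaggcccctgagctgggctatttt
Mybph: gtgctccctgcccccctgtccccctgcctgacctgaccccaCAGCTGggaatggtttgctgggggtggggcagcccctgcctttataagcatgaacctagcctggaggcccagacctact
Atp2a1 and Chrna1 fell in the Pax3 line alone, whereas Mylpf, a light chain of fast muscle, and Mybph, a binding protein of myosin, fell in both lines and were in the shared class, so the same letters stand before genes of both kinds. Among all genes lower in the Pax3 line alone the share was 15.8%, near that of all genes, and it was 18.8% of the opposite genes. Members of the muscle lists that did not fall were not counted, so the share in the lists cannot be told apart from that of muscle genes in general.

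**Figure D4:**
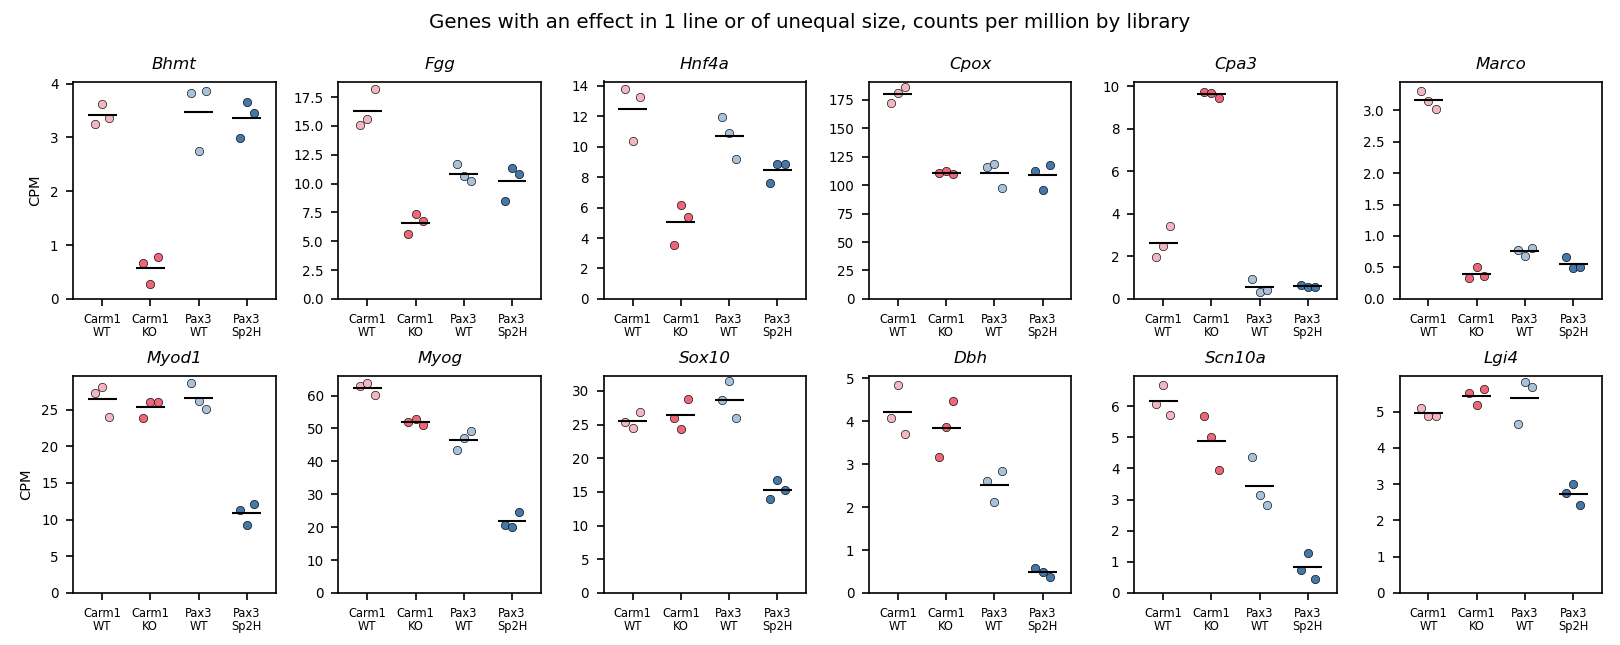
CPM in each library (points, vertical axis from 0) by line and genotype, with the mean as a bar, for 12 genes whose effect was called in 1 line or differed in size. Bhmt, Fgg, Hnf4a, Cpox and Marco are low and Cpa3 is high in Carm1 KO, while Myod1, Myog, Sox10, Dbh, Scn10a and Lgi4 are low in Pax3 Sp2H.

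Cardiac muscle genes held several of opposite effects. Of 34 genes, 10 had a lower and 2 a higher difference, 4 were opposite, and the medians were -0.32 in the Carm1 line, 0.01 in the Pax3 line and -0.26 for the difference. Tnnt2, cardiac troponin T, had 48.1, 48.0 and 48.2 CPM in Carm1 KO/KO embryos and 68.0, 68.4 and 69.4 CPM in their wild types. Tnnt2 had 54.7, 57.0 and 54.4 CPM in Pax3 Sp2H/Sp2H embryos and 45.5, 44.8 and 49.1 CPM in the wild types of that line. Tnnt2 fell by 0.51 in the Carm1 line (adjusted p = 8.9e-08) and rose by 0.25 in the Pax3 line (adjusted p = 9.2e-04), a difference of -0.76 ± 0.08 (adjusted p = 3.6e-08). The Carm1 wild types were the highest libraries, and Carm1 KO/KO fell to about the level of the Pax3 wild types. Myl4, the embryonic atrial light chain, gave -0.41 and 0.30 with a difference of -0.71 ± 0.09 (adjusted p = 1.4e-06), and Myl3, the ventricular one, -0.33 and 0.50 with -0.83 ± 0.12 (adjusted p = 9.8e-06). Nppa, the atrial natriuretic peptide, rose in the Pax3 line alone (difference -0.72 ± 0.12, adjusted p = 1.0e-04). Tnnt2, Myl4 and Myl3 have transcripts of 1200, 943 and 937 nt, and with offsets all 3 were of the Carm1 line alone class with differences of -0.50 (adjusted p = 7.7e-06), -0.38 (adjusted p = 4.1e-04) and -0.50 (adjusted p = 0.0028). Over the list, 1 gene was opposite with offsets and 5 were in the Carm1 line alone.

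Factors of the heart field and outflow tract, a region to which neural crest contributes, moved both ways: of 30, 5 had a higher and 4 a lower difference (30%, beside 19.1% of all genes), with a median of -0.01. Hopx, a homeodomain protein of heart muscle, had 8.08, 8.13 and 7.23 CPM in Carm1 KO/KO embryos and 11.2, 10.2 and 9.38 CPM in their wild types. Hopx had 8.83, 9.19 and 9.55 CPM in Pax3 Sp2H/Sp2H embryos and 5.47, 5.88 and 6.66 CPM in the wild types of that line. Hopx fell by 0.39 in the Carm1 line (adjusted p = 0.029) and rose by 0.61 in the Pax3 line (adjusted p = 2.2e-04), a difference of -1.0 ± 0.17 (adjusted p = 6.4e-05). Neither pair of groups overlapped, and Hopx stayed opposite with offsets. Nfatc4, a calcium-dependent transcription factor, was opposite in both fits as well (-0.18 in the Carm1 line, 0.30 in the Pax3 line, difference -0.48 ± 0.08 (adjusted p = 3.6e-05)). Isl1, which marks the second heart field and also sensory and motor neurons, fell in the Pax3 line alone (0.02 and -0.43, difference 0.46 ± 0.09 (adjusted p = 6.9e-04)). Mef2c, of heart and skeletal muscle, fell in both by unequal amounts (-0.27 and -0.62, difference 0.35 ± 0.08 (adjusted p = 0.0014)).

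Among genes of the neural crest and its derivatives, those of glia and sensory neurons fell in many cases in Pax3 Sp2H/Sp2H embryos, and the other lists were mixed. Of 24 genes of Schwann cell precursors and glia, 9 (37.5%) had a called difference, each higher, 8 of them in the Pax3 line alone, and 11 fell and 2 rose in that line, with medians of 0.03 in the Carm1 line, -0.19 in the Pax3 line and 0.25 for the difference. Of 28 sensory neuron genes 9 had a higher and 2 a lower difference, with medians of -0.16 in the Carm1 line, -0.33 in the Pax3 line and 0.25 for the difference, and 16 fell and 1 rose in the Pax3 line against 8 and 1 in the Carm1 line. Of 24 genes of sympathetic neurons and chromaffin cells 4 were higher and 2 lower (25%, beside 19.1% of all genes), and 5 fell and 4 rose in the Pax3 line. Their median difference of 0.14 was 0.22 with offsets and 0.09 without Carm1 KO/KO replicate 2, 0.07 without Carm1 wild-type replicate 2, 0.09 without Pax3 Sp2H/Sp2H replicate 1, 0.25 without Pax3 Sp2H/Sp2H replicate 3 and 0.07 without Pax3 wild-type replicate 2. Of 14 melanoblast genes 4 were called (28.6%, beside 19.1% of all genes), each higher, with a median of 0.39. In the Pax3 line 3 of them fell, where 14% of all genes fell. For 30 regulators of the neural crest itself the counts were 8 higher and 3 lower (36.7%, beside 19.1% of all genes), and the median was 0.12. With offsets the counts were 6 and 1 (23.3%, beside 17.1% of all genes). In the Pax3 line 9 fell and 5 rose, where 14% of all genes fell and 14.2% rose.

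Sox10, a factor of crest-derived glia and melanoblasts, had 25.9, 24.3 and 28.8 CPM in Carm1 KO/KO embryos and 25.3, 24.4 and 26.8 CPM in their wild types. Sox10 had 13.9, 16.8 and 15.2 CPM in Pax3 Sp2H/Sp2H embryos and 28.7, 31.4 and 25.9 CPM in the wild types of that line. Sox10 had an effect of 0.05 in the Carm1 line (95% interval -0.14 to 0.23, adjusted p = 0.82) and fell by 0.90 in the Pax3 line (adjusted p = 4.1e-09), a difference of 0.95 ± 0.13 (adjusted p = 3.5e-06). The 3 Pax3 Sp2H/Sp2H libraries were the lowest and the other 9 overlapped. Dbh, which makes noradrenaline in sympathetic cells, had 3.18, 3.86 and 4.48 CPM in Carm1 KO/KO embryos and 4.09, 4.84 and 3.70 CPM in their wild types. Dbh had 0.571, 0.491 and 0.375 CPM in Pax3 Sp2H/Sp2H embryos and 2.62, 2.11 and 2.84 CPM in the wild types of that line. Dbh had an effect of -0.14 in the Carm1 line (95% interval -0.53 to 0.25, adjusted p = 0.72) and fell by 2.40 in the Pax3 line (adjusted p = 5.3e-08), a difference of 2.26 ± 0.34 (adjusted p = 1.7e-05). Its 3 Pax3 Sp2H/Sp2H libraries were the lowest of the 12. Scn10a, a sodium channel of pain-sensing neurons, had 5.68, 5.0 and 3.94 CPM in Carm1 KO/KO embryos and 6.07, 6.68 and 5.73 CPM in their wild types. Scn10a had 0.747, 1.29 and 0.459 CPM in Pax3 Sp2H/Sp2H embryos and 4.36, 3.14 and 2.84 CPM in the wild types of that line. Scn10a had an effect of -0.34 in the Carm1 line (95% interval -0.72 to 0.05, adjusted p = 0.29) and fell by 2.05 in the Pax3 line (adjusted p = 3.5e-07), a difference of 1.71 ± 0.33 (adjusted p = 3.2e-04). Here too the Pax3 Sp2H/Sp2H libraries were the lowest, at no more than 1.29 CPM. Lgi4, a secreted protein of glia needed for myelination, had 5.52, 5.17 and 5.62 CPM in Carm1 KO/KO embryos and 5.11, 4.89 and 4.89 CPM in their wild types. Lgi4 had 2.77, 2.99 and 2.42 CPM in Pax3 Sp2H/Sp2H embryos and 4.65, 5.82 and 5.68 CPM in the wild types of that line. Lgi4 had an effect of 0.13 in the Carm1 line (95% interval -0.17 to 0.44, adjusted p = 0.66) and fell by 0.98 in the Pax3 line (adjusted p = 1.6e-05), a difference of 1.11 ± 0.22 (adjusted p = 4.2e-04). Its Carm1 groups lay side by side without overlap but within 4.89 to 5.62 CPM.

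Tlx2, a homeobox gene of the enteric and sensory nervous system, fell in the Pax3 line alone as well (0.31 in the Carm1 line, -1.50 in the Pax3 line, difference 1.81 ± 0.27 (adjusted p = 1.2e-05)). So did Cdh19, a cadherin of Schwann cell precursors (0.09 and -1.16, difference 1.26 ± 0.30 (adjusted p = 0.0035)), and Moxd1, of the crest lineage (0.19 and -0.49, difference 0.68 ± 0.12 (adjusted p = 2.1e-04)). The same held for Neurod1 in sensory neurons (0.12 and -0.60, difference 0.72 ± 0.14 (adjusted p = 3.2e-04)), Rgs4 in sympathetic neurons (-0.28 and -1.13, difference 0.85 ± 0.14 (adjusted p = 7.4e-05)) and Tfap2a, a regulator of the crest and of skin (0.17 and -0.47, difference 0.64 ± 0.11 (adjusted p = 7.0e-05)). Prdm12, a factor of pain-sensing neurons, fell in both lines by unequal amounts (-0.32 in the Carm1 line, -0.98 in the Pax3 line, difference 0.66 ± 0.14 (adjusted p = 8.0e-04)). Twist1, of crest and limb mesenchyme, rose in the Pax3 line alone by 0.41, and with offsets its difference was -0.14 (adjusted p = 0.071). Met, a receptor that guides migrating muscle precursors and is also expressed in melanoblasts, fell in the Pax3 line by 0.53 (difference 0.43 ± 0.13, adjusted p = 0.015, and 0.33, adjusted p = 0.056 with offsets).

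Ednrb, the endothelin receptor that melanoblasts and enteric precursors need, had opposite effects. It is in the lists of crest regulators, melanoblasts and neural progenitors, so its reads need not come from crest cells alone. It had 118, 118 and 118 CPM in Carm1 KO/KO embryos and 88.9, 101 and 97.6 CPM in their wild types. Ednrb had 74.3, 75.3 and 72.0 CPM in Pax3 Sp2H/Sp2H embryos and 99.4, 88.9 and 101 CPM in the wild types of that line. Ednrb rose by 0.30 in the Carm1 line (adjusted p = 2.6e-04) and fell by 0.38 in the Pax3 line (adjusted p = 2.5e-06), a difference of 0.69 ± 0.08 (adjusted p = 1.5e-07). The Carm1 KO/KO libraries were the highest and the Pax3 Sp2H/Sp2H libraries the lowest of the 12, with the wild types of both lines between them, and the class was the same with offsets. Eya1, of sensory placodes, was opposite too (0.27 in the Carm1 line, -0.25 in the Pax3 line, difference 0.51 ± 0.11 (adjusted p = 0.0011)), and of the Carm1 line alone class with offsets.

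**Figure D5:**
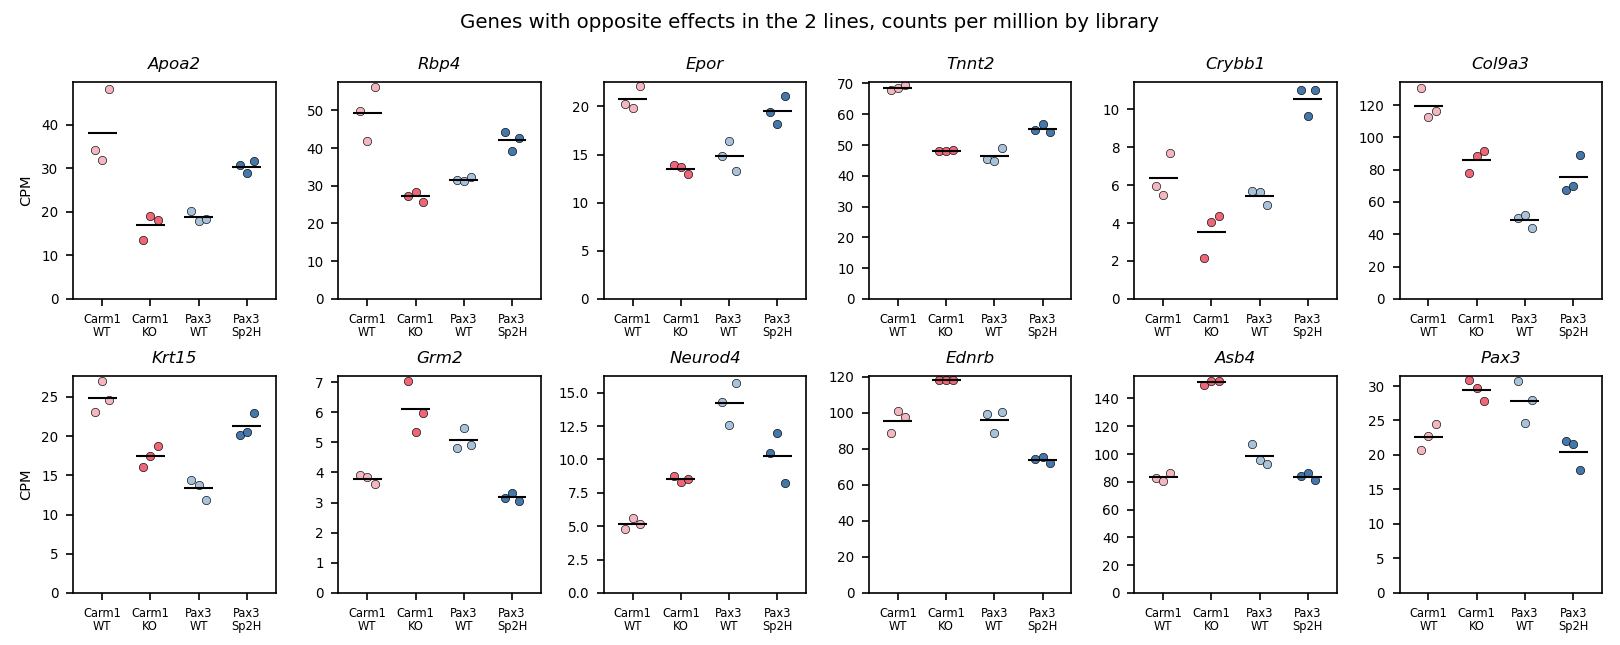
CPM in each library (points, vertical axis from 0) by line and genotype, with the mean as a bar, for 12 genes of opposite effects. For Apoa2, Rbp4, Epor, Tnnt2, Crybb1, Col9a3 and Krt15 the level is lower in Carm1 KO and higher in Pax3 Sp2H than in the wild types of the same line, and for Grm2, Neurod4, Ednrb, Asb4 and Pax3 the reverse holds.

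Of 30 neural progenitor genes 12 rose in the Carm1 line and 10 in the Pax3 line, 6 were shared, 7 had a higher and 5 a lower difference, and the median difference was 0.06, or 0.15 with offsets. Nes, the nestin of progenitors, rose in the Carm1 line alone (0.43 in the Carm1 line, 0.05 in the Pax3 line, difference 0.38 ± 0.08 (adjusted p = 0.0014)), as did Dll1, a Notch ligand (0.36 and 0.01, difference 0.35 ± 0.09 (adjusted p = 0.0044)). Vim, vimentin, fell in the Pax3 line by 0.19 (difference 0.36 ± 0.08, adjusted p = 0.0014), and was opposite with offsets. Of 46 factors of neural tube domains and interneurons 7 had a higher and 3 a lower difference (21.7%, beside 19.1% of all genes), with a median of -0.02 that turned to 0.06 with offsets. Msx3, which marks the dorsal neural tube, had 18.9, 18.2 and 19.1 CPM in Carm1 KO/KO embryos and 9.62, 9.34 and 9.53 CPM in their wild types. Msx3 had 18.4, 18.8 and 18.3 CPM in Pax3 Sp2H/Sp2H embryos and 15.5, 19.2 and 18.6 CPM in the wild types of that line. Msx3 rose by 0.98 in the Carm1 line (adjusted p = 1.7e-08) and had an effect of 0.06 in the Pax3 line (95% interval -0.12 to 0.25, adjusted p = 0.66), a difference of 0.92 ± 0.13 (adjusted p = 9.7e-06). The Carm1 wild types lay at 9.34 to 9.62 CPM and every other library at 15.5 CPM or more. Slc32a1, the vesicle transporter of GABA, rose in the Pax3 line alone (difference -0.57 ± 0.13, adjusted p = 0.0017).

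Grm2 and Neurod4 were neural genes of opposite effects. Grm2, a metabotropic glutamate receptor, had 7.02, 5.34 and 5.98 CPM in Carm1 KO/KO embryos and 3.91, 3.84 and 3.61 CPM in their wild types. Grm2 had 3.16, 3.30 and 3.05 CPM in Pax3 Sp2H/Sp2H embryos and 4.80, 5.48 and 4.92 CPM in the wild types of that line. Grm2 rose by 0.69 in the Carm1 line (adjusted p = 0.0028) and fell by 0.67 in the Pax3 line (adjusted p = 0.0015), a difference of 1.36 ± 0.22 (adjusted p = 3.6e-05). Mutants and wild types did not overlap in either line, and the directions were opposite. Neurod4, a proneural factor, had 8.75, 8.30 and 8.55 CPM in Carm1 KO/KO embryos and 4.75, 5.63 and 5.19 CPM in their wild types. Neurod4 had 10.5, 12 and 8.26 CPM in Pax3 Sp2H/Sp2H embryos and 14.3, 12.6 and 15.7 CPM in the wild types of that line. Neurod4 rose by 0.71 in the Carm1 line (adjusted p = 6.9e-04) and fell by 0.48 in the Pax3 line (adjusted p = 0.0023), a difference of 1.19 ± 0.18 (adjusted p = 1.8e-05). Again neither pair overlapped, and every Pax3 wild type lay above every Carm1 wild type. Adra1a, an adrenergic receptor, was opposite in the same way (0.62 in the Carm1 line, -0.69 in the Pax3 line, difference 1.31 ± 0.27 (adjusted p = 7.2e-04)), and these 3 kept their class with offsets.

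Genes of the neuronal cytoskeleton and synapse fell in both lines more often than they rose, with 19 of 40 lower in the Carm1 line and 12 in the Pax3 line, and 3 had a higher and 9 a lower difference (median -0.12). Gria2, an AMPA receptor subunit, and Dlg4, the scaffold of excitatory synapses, fell in the Carm1 line alone (difference -0.61 ± 0.12, adjusted p = 9.7e-04 and -0.41 ± 0.07, adjusted p = 1.2e-04), and both were opposite with offsets. Nefl, a neurofilament, fell in the Pax3 line alone (difference 0.33 ± 0.07, adjusted p = 7.9e-04), and Stx1a, of vesicle fusion, rose there (difference -0.51 ± 0.11, adjusted p = 0.0012). Clustered protocadherins, cell-surface proteins that give neurons an identity, had medians of -0.41 in the Carm1 line, -0.14 in the Pax3 line and -0.29 for the difference, but 2 of 54 had a called difference (3.70%), Pcdhb6 (difference -1.59 ± 0.45, adjusted p = 0.011) and Pcdhgc3 (difference 0.30 ± 0.07, adjusted p = 0.0039). Hox cluster genes, which set position along the body axis, had 3 of 39 called (7.69%), beside 19.1% of all genes, with a median of 0.04. With offsets 9 (23.1%) were called, beside 17.1% of all genes, with a median of 0.14. The share thus lay below that of all genes in 1 fit and above it in the other. Those called without offsets were Hoxd4 and Hoxd3, which rose in the Carm1 line alone (difference 0.37 ± 0.10, adjusted p = 0.0072 and 0.28 ± 0.09, adjusted p = 0.026), and Hoxb9, which fell in the Pax3 line alone (difference 0.46 ± 0.08, adjusted p = 6.6e-05) and was opposite with offsets. Pcdhb6 was not called when the library Pax3 Sp2H/Sp2H replicate 2 was left out (adjusted p = 0.062), and Hoxd3 was not called when any of Carm1 KO/KO replicates 1 and 2, Carm1 wild-type replicate 2, Pax3 Sp2H/Sp2H replicate 1 and Pax3 wild-type replicate 1 was left out (adjusted p from 0.057 to 0.11).

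Some cartilage genes fell in the Carm1 line, and the 3 chains of type IX collagen rose in the Pax3 line. Of 28 genes of cartilage and early bone, 8 had a lower and 1 a higher difference, with medians of -0.26 in the Carm1 line, 0.16 in the Pax3 line and -0.34 for the difference, and 2 were opposite, or 5 with offsets. Col9a3, a chain of the type IX collagen of cartilage, had 77.7, 88.2 and 91.4 CPM in Carm1 KO/KO embryos and 130.2, 113 and 116 CPM in their wild types. Col9a3 had 67.1, 69.7 and 89.2 CPM in Pax3 Sp2H/Sp2H embryos and 50.3, 52.0 and 43.9 CPM in the wild types of that line. Col9a3 fell by 0.48 in the Carm1 line (adjusted p = 0.021) and rose by 0.63 in the Pax3 line (adjusted p = 0.0023), a difference of -1.11 ± 0.16 (adjusted p = 8.9e-04). Col9a1 was opposite as well (-0.28 in the Carm1 line, 0.35 in the Pax3 line, difference -0.63 ± 0.09 (adjusted p = 2.7e-05)), and Col9a2 had a difference of -0.85 ± 0.12 (adjusted p = 2.3e-04) with a called rise in the Pax3 line alone, or opposite effects with offsets. All 3 chains of this collagen thus differed in the same direction. Wwp2, a ubiquitin ligase of chondrocytes, gave -0.34 ± 0.08 (adjusted p = 0.0036). Ihh, the hedgehog ligand of growing cartilage, fell in the Carm1 line alone (-1.01 and 0.37, difference -1.38 ± 0.35 (adjusted p = 0.0049)). Of 30 interstitial collagens and matrix genes, 7 fell and 1 rose in the Pax3 line. A difference was called for 5 (16.7%, beside 19.1% of all genes), 3 higher and 2 lower. Lum was opposite (difference 0.44 ± 0.08, adjusted p = 2.3e-04). Eln, elastin, rose in the Pax3 line alone (difference -0.79 ± 0.14, adjusted p = 0.0013), Bgn fell there (difference 0.34 ± 0.08, adjusted p = 0.0021), and Postn fell in both by unequal amounts (difference 0.30 ± 0.07, adjusted p = 0.0044). The median difference over the matrix genes was -0.04. With offsets Wwp2 and Eln were opposite, and the difference of Postn was 0.22 (adjusted p = 0.11).

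Some lens and skin genes fell in the Carm1 line or rose in the Pax3 line. Of 19 crystallins 1 fell in the Carm1 line and 6 rose in the Pax3 line, and of 27 epithelial genes the counts were 4 and 3. Over all genes tested, 6.2% fell in the Carm1 line and 14.2% rose in the Pax3 line. The crystallins that fell and the epithelial genes that rose thus lay below the shares of all genes. With offsets 2 crystallins fell in the Carm1 line, and 2 rose and 1 fell in the Pax3 line. Of the epithelial genes 4 then fell in the Carm1 line, and 1 rose and 2 fell in the Pax3 line. Over all 16292 genes, 1158 fell in the Carm1 line and 1593 rose in the Pax3 line with offsets. Crybb1, a beta-crystallin of lens fibres, had 2.17, 4.04 and 4.36 CPM in Carm1 KO/KO embryos and 5.95, 5.5 and 7.71 CPM in their wild types. Crybb1 had 11, 9.64 and 11 CPM in Pax3 Sp2H/Sp2H embryos and 5.72, 5.65 and 4.96 CPM in the wild types of that line. Crybb1 fell by 0.86 in the Carm1 line (adjusted p = 0.0016) and rose by 0.96 in the Pax3 line (adjusted p = 1.9e-05), a difference of -1.82 ± 0.24 (adjusted p = 2.6e-06). It was opposite in both fits, with neither pair of groups overlapping. Of 19 crystallin genes 5 were called, each lower, with medians of -0.40 in the Carm1 line, 0.38 in the Pax3 line and -0.94 for the difference: besides Crybb1 these included Cryge (difference -2.34 ± 0.50, adjusted p = 0.0012), Crybb3 (difference -1.53 ± 0.31, adjusted p = 0.0023) and Cryba4 (difference -1.76 ± 0.43, adjusted p = 0.0036). In the Pax3 wild types Cryge was at 0.533, 0.571 and 0.848 CPM and Cryba4 at 1.16, 1.09 and 0.848 CPM, so both rest on few counts. Crystallin transcripts are short, with a median of 884 nt. With offsets Crybb3 and Cryba4 kept a called difference with neither effect called, and the median difference was -0.68, or -0.43 over members with transcripts of at least 1000 nt. Krt15, a keratin of basal epidermis, had 16.1, 17.5 and 18.7 CPM in Carm1 KO/KO embryos and 23.1, 27.0 and 24.5 CPM in their wild types. Krt15 had 20.2, 20.6 and 22.9 CPM in Pax3 Sp2H/Sp2H embryos and 14.4, 13.8 and 11.9 CPM in the wild types of that line. Krt15 fell by 0.52 in the Carm1 line (adjusted p = 3.2e-04) and rose by 0.67 in the Pax3 line (adjusted p = 2.3e-06), a difference of -1.19 ± 0.13 (adjusted p = 1.5e-07). It kept its class with offsets, whereas Krt5, opposite at first with -1.01 ± 0.16 (adjusted p = 8.1e-04), moved to the Carm1 line alone class. Krt17 and Krt14, also of the epidermis, fell in the Carm1 line alone (difference -1.74 ± 0.26, adjusted p = 1.5e-05 and -0.88 ± 0.13, adjusted p = 2.1e-05), and of 27 epithelial genes 5 were called, each lower (18.5%, beside 19.1% of all genes). The median difference over that list, -0.12, was -0.18 without Carm1 KO/KO replicate 1, -0.06 without Carm1 wild-type replicate 1, -0.25 without Carm1 wild-type replicate 2, -0.07 without Pax3 Sp2H/Sp2H replicate 2, -0.20 without Pax3 wild-type replicate 1 and -0.23 without Pax3 wild-type replicate 2.

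Genes of ribosomes and mitochondria moved in the Pax3 line alone in many cases, and their transcripts are short, so these results rest on the 3 Pax3 wild-type libraries described above. Of 70 subunits of oxidative phosphorylation, 53 had a lower and 1 a higher difference, with a median of -0.47, and with offsets 28 were lower and 4 higher, with a median of -0.17. Of 56 cytosolic ribosomal proteins 36 had a called difference, each lower (median -0.40), and with offsets 25 were lower and 7 higher (median -0.13). Of 74 mitochondrial ribosomal proteins 23 were lower and 2 higher (median -0.13), and with offsets 9 and 8 (median -0.01). Rps29, a small ribosomal protein with a transcript of 390 nt, had 406, 353 and 403 CPM in Carm1 KO/KO embryos and 329, 335 and 402 CPM in their wild types. Rps29 had 446, 483 and 487 CPM in Pax3 Sp2H/Sp2H embryos and 60.5, 102 and 76.3 CPM in the wild types of that line. Rps29 had an effect of 0.12 in the Carm1 line (95% interval -0.25 to 0.50, adjusted p = 0.72) and rose by 2.57 in the Pax3 line (adjusted p = 1.4e-05), a difference of -2.45 ± 0.24 (adjusted p = 2.3e-04). Its 3 Pax3 wild-type libraries stood far below the other 9, Pax3 Sp2H/Sp2H included, and the part of library composition in this result was not tested.

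Atp5k, a subunit of ATP synthase (371 nt), had 51.5, 45.8 and 49.4 CPM in Carm1 KO/KO embryos and 43.1, 44.5 and 51.9 CPM in their wild types. Atp5k had 64.7, 77.4 and 75.8 CPM in Pax3 Sp2H/Sp2H embryos and 12.6, 17.4 and 14.9 CPM in the wild types of that line. Atp5k had an effect of 0.07 in the Carm1 line (95% interval -0.12 to 0.26, adjusted p = 0.70) and rose by 2.29 in the Pax3 line (adjusted p = 5.9e-12), a difference of -2.21 ± 0.13 (adjusted p = 3.6e-09). The pattern was that of Rps29, as it was for Cox5b, of cytochrome oxidase (difference -1.03 ± 0.08, adjusted p = 2.7e-10), Ndufs6 and Ndufa3, of complex I (difference -1.29 ± 0.10, adjusted p = 2.4e-10 and -1.09 ± 0.10, adjusted p = 4.1e-09), and Rpl37 and Rps23 (difference -1.27 ± 0.09, adjusted p = 3.8e-09 and -0.98 ± 0.09, adjusted p = 7.1e-09). For each gene the length is that of its longest listed coding transcript, which need not be the isoform expressed. It was longer for Rpl18 (2989 nt, difference -0.67 ± 0.08, adjusted p = 1.0e-06), Mrps14 (2999 nt, -0.61 ± 0.12, adjusted p = 2.6e-04) and Mrp63 (2877 nt, -0.77 ± 0.13, adjusted p = 8.9e-05). The offsets use these same lengths, and the part of length in these differences was not tested. Mrpl14 and Mrpl12, of the large mitochondrial subunit, gave -0.89 ± 0.14 (adjusted p = 2.7e-05) and -0.48 ± 0.10 (adjusted p = 6.5e-04). Genes of ribosomal proteins have processed copies in the genome, so their counts are uncertain.

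Splicing factors were called in the Pax3 line alone in 15 of 48 cases, where 12.5% of all genes were in that class. They had 7 higher and 10 lower differences (35.4%, beside 19.1% of all genes) and a median of 0.01, or -0.03 with offsets. Snrpg (difference -1.01 ± 0.10, adjusted p = 8.8e-08), Snrpd3 (difference -0.66 ± 0.09, adjusted p = 9.0e-06), Srsf9 (difference -0.63 ± 0.08, adjusted p = 9.1e-07) and Snrnp70 (difference -0.47 ± 0.07, adjusted p = 1.6e-05) all rose in the Pax3 line. Of 32 replication-dependent histones, most of which lack a poly(A) tail, 5 were lower and 1 higher (18.75%, beside 19.1% of all genes). Their median of -0.35 came to -0.03 with offsets. It was -0.21 without Carm1 wild-type replicate 1, -0.22 without Pax3 Sp2H/Sp2H replicate 2 and -0.14 without Pax3 wild-type replicate 1. Hist1h1c (difference -0.66 ± 0.14, adjusted p = 8.9e-04) and Hist1h2bc (difference -0.75 ± 0.20, adjusted p = 0.0065) fell in the Carm1 line alone. Hist3h2a was opposite (difference -0.60 ± 0.12, adjusted p = 4.8e-04), and Hist2h4 fell in the Pax3 line alone (difference 2.35 ± 0.46, adjusted p = 4.7e-04). Targets of p53 had 4 lower and 2 higher of 27 (22.2%, beside 19.1% of all genes), with a median of 0.003. Ddit4, a stress-induced inhibitor of mTOR, had 81.0, 68.4 and 77.4 CPM in Carm1 KO/KO embryos and 80.0, 77.7 and 77.0 CPM in their wild types. Ddit4 had 105, 117 and 122 CPM in Pax3 Sp2H/Sp2H embryos and 44.1, 62.9 and 56.7 CPM in the wild types of that line. Ddit4 had an effect of -0.05 in the Carm1 line (95% interval -0.29 to 0.19, adjusted p = 0.84) and rose by 1.08 in the Pax3 line (adjusted p = 1.7e-05), a difference of -1.13 ± 0.15 (adjusted p = 3.6e-04). Bax, Bbc3 and Phlda3, which rose in the Pax3 line alone by 0.59, 0.48 and 0.54, did not keep that class with offsets, where their differences were -0.10 (adjusted p = 0.37), -0.31 (adjusted p = 0.16) and -0.45 (adjusted p = 0.020). Of 29 genes of glycolysis and the hypoxia response 4 were called (13.8%, median -0.05, or -0.02 with offsets): Slc2a1, the glucose transporter of blood vessels and red cells, was opposite (difference -0.48 ± 0.09, adjusted p = 1.7e-04), Higd1a and Vegfa rose in the Pax3 line alone (difference -0.79 ± 0.12, adjusted p = 1.1e-05 and -0.34 ± 0.08, adjusted p = 0.0019), and Gapdh gave 0.24 ± 0.08 (adjusted p = 0.039) with neither effect called, or opposite effects with offsets. Gapdh was not called when any of Carm1 KO/KO replicates 1, 2 and 3, Carm1 wild-type replicates 1, 2 and 3, Pax3 Sp2H/Sp2H replicates 1 and 3 and Pax3 wild-type replicates 2 and 3 was left out (adjusted p from 0.050 to 0.14).

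Of 39 cell cycle genes 12 fell and 6 rose in the Pax3 line and 3 rose in the Carm1 line, and 10 had a higher and 2 a lower difference (30.8%, beside 19.1% of all genes). With offsets 7 fell and 3 rose in the Pax3 line, 8 rose in the Carm1 line, and 12 had a higher difference (30.8%, beside 17.1% of all genes). The median difference of 0.11 was 0.07 without Carm1 KO/KO replicate 1 and 0.07 without Pax3 wild-type replicate 1. Tpx2, of the mitotic spindle, was opposite (0.18 in the Carm1 line, -0.23 in the Pax3 line, difference 0.41 ± 0.07 (adjusted p = 6.2e-05)), in both fits. Cenpf, of the kinetochore, was opposite (difference 0.39 ± 0.08, adjusted p = 8.8e-04), and Cenpe and Mki67 fell in the Pax3 line alone (difference 0.36 ± 0.07, adjusted p = 6.8e-04 and 0.43 ± 0.10, adjusted p = 0.0023). These are long transcripts, of 7910 to 11130 nt, and with offsets Cenpf was in the Carm1 line alone and Cenpe was opposite. Cholesterol synthesis genes fell in the Pax3 line in 10 of 24 cases and had 6 higher and 2 lower differences (33.3%, beside 19.1% of all genes, median 0.11): Hmgcs1, an early enzyme of the pathway, gave 0.27 ± 0.07 (adjusted p = 0.0060). Pmvk, a later enzyme, rose in the Pax3 line alone (difference -0.38 ± 0.11, adjusted p = 0.0093), and was not called with offsets.

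Asb4, an imprinted gene of the Peg10 cluster that encodes a part of a ubiquitin ligase, was among the opposite genes named by size. It had 149.7, 152 and 153 CPM in Carm1 KO/KO embryos and 82.9, 80.7 and 86.4 CPM in their wild types. Asb4 had 83.9, 86.5 and 81.0 CPM in Pax3 Sp2H/Sp2H embryos and 107, 95.6 and 92.8 CPM in the wild types of that line. Asb4 rose by 0.86 in the Carm1 line (adjusted p = 2.7e-13) and fell by 0.23 in the Pax3 line (adjusted p = 0.0013), a difference of 1.10 ± 0.08 (adjusted p = 1.2e-11). Its 3 Carm1 KO/KO libraries stood above all others, and the fall in the Pax3 line was small and without overlap. Of 39 imprinted genes 9 had a higher and 5 a lower difference (median 0.09, or 0.05 with offsets): Meg3 was opposite (difference -0.53 ± 0.09, adjusted p = 1.1e-04) and Ndn fell in the Carm1 line alone (difference -0.57 ± 0.08, adjusted p = 8.9e-06). Peg10 fell in the Pax3 line alone (difference 0.48 ± 0.07, adjusted p = 1.1e-05), or was opposite with offsets. Of the 9 arginine methyltransferases 3 were called (median over the list -0.06, or -0.02 with offsets): Carm1, and Prmt5 (difference 0.31 ± 0.07, adjusted p = 0.0023) and Prmt2 (difference -0.45 ± 0.10, adjusted p = 0.0016), which were opposite in sign in the lines, the last of them in the Carm1 line alone with offsets.

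Of 29 Wnt targets and antagonists 4 were called (13.8%, median 0.01), beside 19.1% of all genes, and 7 (24.1%) with offsets, beside 17.1%. Without offsets Nkd2 was opposite (difference 0.52 ± 0.10, adjusted p = 2.5e-04), and Frzb, Sfrp2 and Wnt7b changed in the Carm1 line alone (difference 0.51 ± 0.11, adjusted p = 0.0011, -0.36 ± 0.07, adjusted p = 4.2e-04 and 0.23 ± 0.08, adjusted p = 0.044). Of 30 genes of the Hedgehog and Notch pathways 8 were higher and 2 lower (median 0.08, or 0.15 with offsets), among them Heyl, a Notch target, and Gli3, a Hedgehog effector, which fell in the Pax3 line alone (difference 0.64 ± 0.11, adjusted p = 7.2e-05 and 0.30 ± 0.07, adjusted p = 0.0014). Of 30 endothelial genes 7 were higher and 3 lower (median 0.09, or 0.18 with offsets): Tek and Plvap rose in the Carm1 line alone (difference 0.47 ± 0.11, adjusted p = 0.0028 and 0.33 ± 0.10, adjusted p = 0.013), and Ets1 gave 0.28 ± 0.08 (adjusted p = 0.012) with neither effect called. Cldn5 rose in the Pax3 line alone (difference -0.44 ± 0.14, adjusted p = 0.020), which was not called with offsets. Wnt7b was not called when any of Carm1 KO/KO replicates 1, 2 and 3, Carm1 wild-type replicates 1 and 3, Pax3 Sp2H/Sp2H replicates 1, 2 and 3 and Pax3 wild-type replicates 2 and 3 was left out (adjusted p from 0.058 to 0.12). Ets1 was not called when the library Carm1 KO/KO replicate 1 was left out (adjusted p = 0.053), Plvap was not called when the library Pax3 Sp2H/Sp2H replicate 1 was left out (adjusted p = 0.052), and Cldn5 was not called when any of Carm1 KO/KO replicates 1 and 3 and Carm1 wild-type replicate 3 was left out (adjusted p from 0.054 to 0.075). With offsets Ets1 and Gli3 were in the Carm1 line alone and Plvap was opposite.

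The remaining genes were named for the size of their difference within a class. Slc39a5, a zinc transporter of gut, pancreas and liver, had 2.56, 2.50 and 2.57 CPM in Carm1 KO/KO embryos and 5.29, 5.11 and 5.29 CPM in their wild types. Slc39a5 had 4.22, 4.28 and 3.46 CPM in Pax3 Sp2H/Sp2H embryos and 1.55, 3.03 and 2.59 CPM in the wild types of that line. Slc39a5 fell by 1.04 in the Carm1 line (adjusted p = 3.8e-04) and rose by 0.75 in the Pax3 line (adjusted p = 0.0037), a difference of -1.78 ± 0.27 (adjusted p = 1.8e-05). The mutants lay below the wild types in the Carm1 line and above them in the Pax3 line, with no overlap. Icam4, an adhesion molecule of red cells, had 6.46, 5.46 and 4.78 CPM in Carm1 KO/KO embryos and 10.1, 8.47 and 10.4 CPM in their wild types. Icam4 had 7.90, 6.96 and 8.93 CPM in Pax3 Sp2H/Sp2H embryos and 5.18, 4.51 and 4.75 CPM in the wild types of that line. Icam4 fell by 0.79 in the Carm1 line (adjusted p = 1.9e-04) and rose by 0.72 in the Pax3 line (adjusted p = 1.8e-04), a difference of -1.51 ± 0.20 (adjusted p = 1.8e-06). Its pattern was that of Slc39a5, and both were opposite with offsets. Tmem191c, which encodes a membrane protein, was opposite in the same direction (-0.67 in the Carm1 line, 0.63 in the Pax3 line, difference -1.30 ± 0.19 (adjusted p = 1.1e-05)), and Enpp3, an ectoenzyme of basophils and mast cells, in the other (0.48 and -0.44, difference 0.93 ± 0.18 (adjusted p = 3.5e-04)), though with offsets it was in the Carm1 line alone.

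In the Carm1 line alone, Fabp1, the fatty acid-binding protein of liver and gut, had 0.891, 0.739 and 0.598 CPM in Carm1 KO/KO embryos and 2.83, 2.23 and 5.93 CPM in their wild types. Fabp1 had 2.24, 1.70 and 2.17 CPM in Pax3 Sp2H/Sp2H embryos and 1.41, 1.26 and 1.40 CPM in the wild types of that line. Fabp1 fell by 2.29 in the Carm1 line (adjusted p = 1.5e-05) and had an effect of 0.58 in the Pax3 line (95% interval -0.03 to 1.2, adjusted p = 0.16), a difference of -2.87 ± 0.45 (adjusted p = 3.2e-05). Apoh, a plasma glycoprotein, gave -2.60 ± 0.55 (adjusted p = 0.0037), and Serpina1c, Serpina1d and Serpina1e -3.07 ± 0.82 (adjusted p = 0.011), -2.57 ± 0.40 (adjusted p = 2.8e-05) and -4.24 ± 1.47 (adjusted p = 0.040). Serpina1e had at most 0.176 CPM in the Pax3 line, so its difference is a fitted value with no base there, and Serpina1e was not called when any of Pax3 Sp2H/Sp2H replicates 1 and 2 and Pax3 wild-type replicates 2 and 3 was left out (adjusted p from 0.051 to 0.49), with a difference of -2.73 without Pax3 Sp2H/Sp2H replicate 1. Hydin, needed for motile cilia, had 3.12, 2.67 and 2.75 CPM in Carm1 KO/KO embryos and 0.541, 1.13 and 0.889 CPM in their wild types. Hydin had 0.483, 0.491 and 0.959 CPM in Pax3 Sp2H/Sp2H embryos and 0.872, 0.799 and 1.23 CPM in the wild types of that line. Hydin rose by 1.69 in the Carm1 line (adjusted p = 2.4e-04) and had an effect of -0.59 in the Pax3 line (95% interval -1.31 to 0.13, adjusted p = 0.22), a difference of 2.28 ± 0.47 (adjusted p = 7.0e-04). Smc1b, a meiotic cohesin, also rose in the Carm1 line alone (difference 1.83 ± 0.51, adjusted p = 0.0099), and Smc1b was not called when the library Carm1 KO/KO replicate 2 was left out (adjusted p = 0.052). DESeq2 gave no adjusted p for Smc1b or for Serpina1c. BC021767, a transcript known by its clone name, had 7.19, 7.45 and 7.53 CPM in Carm1 KO/KO embryos and 1.14, 1.44 and 2.37 CPM in their wild types. BC021767 had 6.15, 4.20 and 3.84 CPM in Pax3 Sp2H/Sp2H embryos and 4.41, 4.80 and 3.56 CPM in the wild types of that line. The Carm1 wild types were the libraries that stood apart, and the difference was 1.98 ± 0.28 (adjusted p = 9.2e-06).

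In the Pax3 line alone, several of the largest differences came from small RNA genes, whose reads in a library of polyadenylated RNA need not come from the mature RNA. Mir219-1 had 1.62, 1.48 and 2.03 CPM in Carm1 KO/KO embryos and 1.62, 1.13 and 1.04 CPM in their wild types. Mir219-1 had 2.42, 2.32 and 1.79 CPM in Pax3 Sp2H/Sp2H embryos and 0.145, 0.114 and 0.212 CPM in the wild types of that line. Mir219-1 had an effect of 0.45 in the Carm1 line (95% interval -0.14 to 1.03, adjusted p = 0.37) and rose by 3.70 in the Pax3 line (adjusted p = 9.8e-09), a difference of -3.25 ± 0.51 (adjusted p = 2.8e-05). Its hairpin is the RefSeq gene Mir219a-1 (chr17:34024983-34025092, GRCm38.p6, minus strand), matched by coordinates, and its mature products are shown with the seed, bases 2 to 8, in capitals because this is the one miRNA named here.
mmu-miR-219a-5p: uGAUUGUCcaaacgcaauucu
mmu-miR-219a-1-3p: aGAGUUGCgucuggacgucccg
The 3 Pax3 wild types were again the libraries that stood apart, at most 0.212 CPM. Snord104, a small nucleolar RNA, rose in the same way (difference -2.26 ± 0.27, adjusted p = 7.1e-06), while Scarna9, of Cajal bodies, fell (difference 1.96 ± 0.51, adjusted p = 0.0065) and was at 6.37 CPM or more in the Carm1 line and at 1.03 CPM or less in the Pax3 line. Nr2c2ap, which encodes a partner of a nuclear receptor, rose in the Pax3 line alone (difference -2.51 ± 0.55, adjusted p = 0.0021).

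The shared genes that rose are given for contrast. Miat, a nuclear noncoding RNA of neurons, rose by 0.32 and 0.56 with a difference of -0.25 ± 0.09 (adjusted p = 0.052), Nr2f1, an orphan nuclear receptor of the developing brain, by 0.43 and 0.34 with 0.09 ± 0.07 (adjusted p = 0.43), and Ankle1, an endonuclease, by 0.49 and 0.59 with -0.10 ± 0.10 (adjusted p = 0.53). With offsets Miat and Nr2f1 moved to the class of unequal size. The difference of Miat lay at the threshold. It was called with DESeq2 (adjusted p = 0.028), with upper-quartile factors, under either other filter, with the Y-linked term, over transcripts of at least 1000 nt, and without Carm1 wild-type replicate 3 or Pax3 Sp2H/Sp2H replicate 3. Its place among the shared genes does not hold under these settings. A difference that misses the threshold does not show that the effects were equal: the 95% interval was -0.06 to 0.23 for Nr2f1 and -0.30 to 0.10 for Ankle1.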

How the data were processed

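RNA was sequenced from whole E12.5 mouse embryos, 3 in each of 4 groups, as 12 libraries of polyadenylated RNA read as 150 bp pairs. The authors aligned the reads with STAR to mm10 and counted them per gene with featureCounts, and the deposited values are raw counts in 1 table for each line. The versions, strand setting and treatment of reads with several matches are not given in the sources used here. The 2 tables were joined by gene symbol.

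The 12 libraries were fitted together in edgeR 4.0.16 (R 4.3.3) with TMM factors, the filterByExpr filter and a mean for each group, and contrasts were tested with the quasi-likelihood test and Benjamini-Hochberg adjustment at 0.05. The study tested each line on its own, and that fit is among the alternatives, as is DESeq2 1.42.0. Transcript lengths and GC content came from an annotation of the same build, in which 21777 symbols matched directly, 1278 by an older symbol and 365 not at all. They are those of the longest protein-coding transcript listed for a gene, or of its longest transcript where none is coding. Offsets were natural splines with 5 degrees of freedom fitted in each library. The fit and its contrasts were tested on simulated data. The 40 gene lists and the genes and classes were chosen with earlier results of these data known.

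Genes were named by a rule: the targeted genes, the 5 with the largest difference in each direction of the opposite, Carm1 line alone and Pax3 line alone classes (mean of at least 1 CPM, no overlap of groups where called), up to 4 members of each list by adjusted p, and 3 shared genes in each direction. Beyond it, the genes with printed promoters were chosen by their motif, and some genes that the rule names are not reported here. Nothing in the labels says more of the replicates than that each was an embryo, and a single gene tested by exact permutation of 3 against 3 libraries has a smallest p of 0.1. Library totals of 17183344 to 23518692 counts limit the precision of genes below 1 CPM. The replicate numbers were not taken to pair mutant and wild-type libraries.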

Additional observations from a re-analysis of the deposited data

Results flagged for a closer look

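The test of the difference itself picked out 3115 genes whose effects in the 2 lines were unequal, which is the comparison of the report. Of these, the 30 genes of largest difference in 3 classes are given here with the difference on the log2 scale, negative where the Carm1 effect was the lower. The opposite genes were Apoa2 at -1.86, Crybb1 at -1.82, Slc39a5 at -1.78, Icam4 at -1.51, Tmem191c at -1.30, Enpp3 at 0.93, Asb4 at 1.10, Neurod4 at 1.19, Adra1a at 1.31 and Grm2 at 1.36. The genes of the Carm1 line alone were Serpina1e at -4.24, Serpina1c at -3.07, Fabp1 at -2.87, Apoh at -2.60, Serpina1d at -2.57, Ccr2 at 1.75, Cpa3 at 1.79, Smc1b at 1.83, BC021767 at 1.98 and Hydin at 2.28, where Serpina1e has almost no reads in the Pax3 line, so that its value has no base there. The genes of the Pax3 line alone were Mir219-1 at -3.25, Nr2c2ap at -2.51, Rps29 at -2.45, Cryge at -2.34, Snord104 at -2.26, Scn10a at 1.71, Tlx2 at 1.81, Scarna9 at 1.96, Dbh at 2.26 and Hist2h4 at 2.35. Levels of Scarna9 differed between the wild types of the lines by more than either mutation moved them. Hist2h4 was at most 0.491 CPM in Pax3 Sp2H/Sp2H embryos and Cryge at most 0.848 CPM in the Pax3 wild types, so both values rest on few counts.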

How the results depend on the processing

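The count of genes whose effects differed stayed within 2722 to 3353 over 10 other settings and was 2790 with length and GC offsets. Among settings that kept all libraries, those offsets moved the Carm1 line alone and Pax3 line alone classes most: 898 genes were then in the Carm1 line alone and 1286 in the Pax3 line alone, and with a term for Y-linked counts added, 831 were in the Carm1 line alone and 52 were of unequal size. The cause was not tested beyond the length trend of the Pax3 wild types. Leaving out each library in turn gave 2311 to 3390 genes with a difference, 974 to 1562 of them higher and 1335 to 1828 lower, 891 to 1966 with a Carm1 effect, 3106 to 4782 with a Pax3 effect, 106 to 201 opposite, 331 to 628 in the Carm1 line alone, 1418 to 2321 in the Pax3 line alone, 10 to 42 of unequal size and 166 to 336 shared.

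With a replicate block within each line 3094 genes were called, 193 of them opposite, 515 in the Carm1 line alone, 2006 in the Pax3 line alone and 37 of unequal size. Among 171 named genes that block lost 3 calls, Beta-s (adjusted p = 0.055), Hbb-bh1 (adjusted p = 0.059) and Wnt7b (adjusted p = 0.051), and gained 1, Miat (adjusted p = 0.048). The correlations of same-numbered deviations were -0.04, -0.0052 and -0.03 in the Carm1 line and 0.13, -0.07 and 0.20 in the Pax3 line, and 3 of 12 libraries correlated best with their own number, so not every pair deviated together. DESeq2 called 2838 genes. It gave no adjusted p for Cma1, Marco, Serpina1c, Smc1b and Uroc1, so these were not called there. Their differences were 4.56, -2.50, -3.07, 1.84 and -3.66 with DESeq2. Wnt7b was not called either (adjusted p = 0.052).

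Differences that changed sign were all small and not called. With offsets Acta1 was at 0.047 and Ankle1 at 0.062, and with the Y-linked term added at 0.046 and 0.062. Leaving out a library took Actn2 from -0.050 to 0.12 and Myl1 from -0.014 to 0.16. The median difference of the globin list turned to -0.39 with DESeq2 and -0.40 with no filter, and that of macrophages to 0.10 with offsets. The main limits are that the lines differ in strain and laboratory, that short transcripts are read against 3 unusual wild-type libraries, and that genes under 1 CPM rest on few counts.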
